A study of Homo sapiens with 3 samples.

Results

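The clustered protocadherins were examined in RNA-seq of cells labelled HepG2. They were taken as every row on chromosome 5 of the deposited gene tables named PCDHA, PCDHB, PCDHGA, PCDHGB or PCDHGC with a member number, including the forms PCDHAC1 and PCDHAC2. This gave 53 of the 43389 rows shared by all 3 tables, with 15 in the alpha cluster, 16 in the beta cluster and 22 in the gamma cluster. The measured samples were 3 libraries of polyA RNA labelled as HepG2, a long-established line grown from a human liver tumor. Marker genes read from the same tables go against this label, as given beside the library values. Their labels give the genotype as WT and no treatment, so the series has 1 condition with n = 3, and no second group was available for comparison. The labels do not say whether the replicates came from separate cultures, so their spread may be technical.

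Clustered protocadherins are cadherin-like proteins of the cell surface, best known from neurons. There, each cell uses a few of the many promoters of the 3 tandem clusters, and the resulting mixture of proteins gives the cell an identity that is read by homophilic contact, in which a protein on one cell binds the same protein on its neighbor. Each alpha or gamma gene has its own promoter and large first exon, which encodes the extracellular cadherin repeats and the membrane span. This exon is spliced to constant exons common to the whole cluster. The beta genes have a single coding exon and no constant part. Most promoters carry a conserved sequence element, with the core CGCT, that is bound by the chromatin protein CTCF, and methylation of the DNA silences them. The C-type members PCDHAC1, PCDHAC2, PCDHGC3, PCDHGC4 and PCDHGC5 stand at the 3′ ends of their clusters and are chosen less randomly than the rest. The promoters of PCDHAC2, PCDHB1, PCDHGC4 and PCDHGC5 are known to lack the conserved element.

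In GRCh38, the deposited rows placed all 53 genes on the plus strand of chromosome 5. The alpha rows ran from 140786136 to 141012347, the beta rows from 141051376 to 141249365 and the gamma rows from 141330685 to 141512981. The alpha rows overlap one another because all of them end at 1 of 2 neighboring positions, and the 22 gamma rows end at 1 of 4. In GENCODE v44, the 3 constant exons of the alpha cluster (140978949 to 140979007, 140982475 to 140982563 and 141009627 to 141012347) are annotated in 15 of 15 alpha genes. Those of the gamma cluster (141494807 to 141494865, 141505393 to 141505481 and 141510947 to 141512975) are annotated in 22 of 22 gamma genes. A read within a constant exon could therefore have been assigned to any member of its cluster, and the values of single alpha and gamma members carry this uncertainty. The constant exons are 59, 89 and 2721 nt long in the alpha cluster and 59, 89 and 2029 nt long in the gamma cluster. The beta rows do not overlap.

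Promoter windows of 300 bases, from 250 bases before to 50 after the annotated start, were found in RefSeq (GRCh38.p14) for 47 of the 53 genes. Those of PCDHA3, PCDHA13, PCDHB6, PCDHB11, PCDHGA12 and PCDHGC5 were not used here. The windows of the leading members of each cluster, of PCDHA12, whose level differed most between the libraries among members averaging 0.1 TPM or more, and of PCDHB1, which was listed at 0, are shown, 5′ to 3′ on the plus strand. Capitals mark TGNCGCT on either strand or, where this was not found (PCDHB1 and PCDHGA1), CGCT on either strand. PCDHAC2 lies at chr5:140966226-140966525, PCDHA12 at chr5:140875058-140875357, PCDHB13 at chr5:141213669-141213968, PCDHB14 at chr5:141223093-141223392, PCDHGA1 at chr5:141330264-141330563 and PCDHB1 at chr5:141051124-141051423.
PCDHAC2: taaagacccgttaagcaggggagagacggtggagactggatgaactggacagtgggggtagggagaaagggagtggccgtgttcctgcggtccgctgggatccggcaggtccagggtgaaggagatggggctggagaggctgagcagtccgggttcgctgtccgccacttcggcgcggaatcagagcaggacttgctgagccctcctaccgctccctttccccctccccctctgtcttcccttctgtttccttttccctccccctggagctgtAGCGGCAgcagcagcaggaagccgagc
PCDHA12: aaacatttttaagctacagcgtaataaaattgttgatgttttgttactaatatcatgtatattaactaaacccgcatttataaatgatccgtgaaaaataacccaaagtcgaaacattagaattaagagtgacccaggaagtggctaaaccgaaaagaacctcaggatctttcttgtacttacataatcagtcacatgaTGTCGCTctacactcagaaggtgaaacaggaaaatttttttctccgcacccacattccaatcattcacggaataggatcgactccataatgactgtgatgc
PCDHB13: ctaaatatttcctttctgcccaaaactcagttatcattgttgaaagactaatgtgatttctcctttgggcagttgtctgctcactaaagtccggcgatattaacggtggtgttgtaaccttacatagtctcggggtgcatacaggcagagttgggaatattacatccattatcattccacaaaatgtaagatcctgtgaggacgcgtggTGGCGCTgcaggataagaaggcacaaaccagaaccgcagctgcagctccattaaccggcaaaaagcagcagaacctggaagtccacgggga
PCDHB14: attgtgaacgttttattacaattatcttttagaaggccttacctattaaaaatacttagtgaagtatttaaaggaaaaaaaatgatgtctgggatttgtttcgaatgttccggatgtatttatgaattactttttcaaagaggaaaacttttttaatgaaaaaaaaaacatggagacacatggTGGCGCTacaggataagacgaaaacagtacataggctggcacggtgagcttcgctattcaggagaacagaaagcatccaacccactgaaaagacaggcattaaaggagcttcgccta
PCDHGA1: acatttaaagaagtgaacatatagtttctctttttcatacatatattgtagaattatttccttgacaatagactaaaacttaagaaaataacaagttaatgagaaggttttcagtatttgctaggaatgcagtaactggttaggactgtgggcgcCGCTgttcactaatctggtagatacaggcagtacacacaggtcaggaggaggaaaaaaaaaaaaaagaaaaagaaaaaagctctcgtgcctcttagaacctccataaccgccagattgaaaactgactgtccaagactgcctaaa
PCDHB1: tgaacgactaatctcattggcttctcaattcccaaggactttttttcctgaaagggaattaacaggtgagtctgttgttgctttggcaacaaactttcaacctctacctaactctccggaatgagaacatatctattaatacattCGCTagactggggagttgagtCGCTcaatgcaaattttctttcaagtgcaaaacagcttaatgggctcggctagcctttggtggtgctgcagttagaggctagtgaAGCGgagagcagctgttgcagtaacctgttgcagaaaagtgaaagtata

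The longer motif was read from these windows after they had been inspected, so its share describes them and tests nothing. TGNCGCT stood on the coding strand in 30 of the 47 genes with a window, or 63.8%, against 5.82% of all 35116 RefSeq promoter windows. The first share counts genes and the second windows. Counted by window on both sides and on either strand, the shares were 67.3% (35 of 52) and 10.9%. On the coding strand, the motif was found in 10 of 13 alpha, 13 of 14 beta and 7 of 20 gamma genes. With sites in overlapping windows of a gene counted once, there were 32 sites. Counted from the nearest annotated start of the gene, they began between -149 and 0, with a median of -58. The shorter CGCT, which the longer motif contains, was on either strand in 51 of the 52 windows, or 98.1%, against 70.0% of all promoters. PCDHA12, PCDHB13 and PCDHB14 held the longer motif at -51, -41 and -67. PCDHAC2 did not hold it on the coding strand and had 1 match on the other strand, at position 23. On neither strand was it found in 15 of the 47 genes, which were 2 alpha genes (PCDHA9 and PCDHAC1), 1 beta gene (PCDHB1) and 12 gamma genes, among them PCDHGA1, PCDHGA10, PCDHGB2 and PCDHGC4. Of the 4 C-type genes with a window, PCDHGC3 held it on the coding strand. The shorter CGCT was on either strand in 12 of 13 alpha, 14 of 14 beta and 25 of 25 gamma windows. A missing TGNCGCT alone therefore does not show that a promoter lacks the conserved element.

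Levels are given as TPM, which accounts for gene length and gives every library an equal sum, so that members can be set beside one another. Mitochondrially encoded genes summed to between 198727 and 202308 TPM per library. As a check of the label, 20 genes for secreted liver proteins were read. Throughout the series, 12 of them, including albumin (ALB), had no signal, and 2, RBP4 and VTN, exceeded 1 TPM. Of the protein-coding rows of the main chromosomes, 20.0% were listed at 0 and 59.5% reached 1 TPM in every library. HepG2 is known for expressing ALB, AFP and the apolipoproteins. Here APOA1, APOA2, APOB and APOC3 were also listed at 0, and AFP had a mean of 0.0162 TPM. These values go against the label, so the identity of the cells is in doubt, and every level in the text is that of libraries labelled HepG2. In bulk RNA, a low level in every cell and a higher level in a few cells cannot be told apart.

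Of the 53 clustered protocadherins, 1 reached 1 TPM in every library, a share of 1.89%, while 30.7% of all rows and 59.5% of the protein-coding rows of the main chromosomes did so. This gene was PCDHAC2. At a limit of 0.1 TPM the number was 7, or 13.2%, against 39.5% of all rows and 68.0% of protein-coding rows. These were PCDHAC2 and PCDHA8 in the alpha cluster, PCDHB10, PCDHB13 and PCDHB14 in the beta cluster, and PCDHGA1 and PCDHGA10 in the gamma cluster. A further 36 members stayed below 0.1 TPM in all 3 libraries. Values above 0 in every library were listed for 25 members (47.2%, against 42.8% of all rows and 71.4% of protein-coding rows), in 2 libraries for 12 and in 1 library for 11. The lowest such values were 0.000256 TPM for PCDHA10 in replicate 1 and 0.000716 TPM for PCDHAC1 in replicate 3. In beta rows, 1 read pair of 300 bases corresponded to between 0.0106 and 0.0211 TPM, so a value above 0 need not stand for a whole read pair. PCDHA2, PCDHA3, PCDHA4, PCDHB1 and PCDHGB4 were listed at 0 in all 3, a share of 9.43% against 46.1% of all rows and 20.0% of protein-coding rows. The median of the members' mean levels was 0.0216 TPM.

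**Figure D1:**
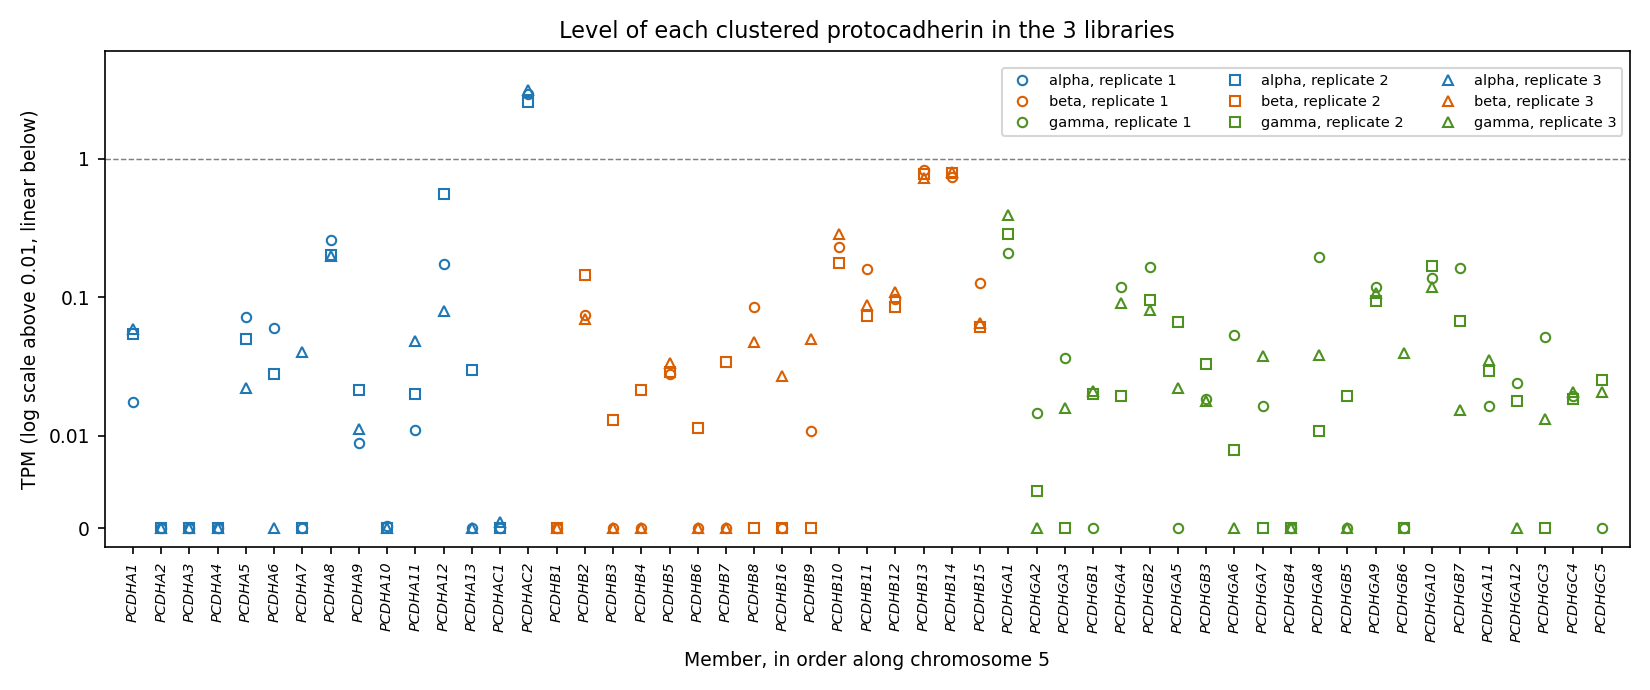
TPM of each of the 53 members in replicates 1 (circles), 2 (squares) and 3 (triangles), in the order of the genes along chromosome 5, colored by cluster; the vertical axis is logarithmic above 0.01 TPM and linear below, and the dashed line marks 1 TPM. PCDHAC2 lies above the line in all 3 libraries, PCDHB13 and PCDHB14 lie just below it, and most other members lie under 0.1 TPM.

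PCDHAC2, the last gene of the alpha cluster, had 2.94, 2.58 and 3.12 TPM in replicates 1, 2 and 3, a mean of 2.88 ± 0.273 TPM (SD, n = 3). Its lowest value exceeded the highest value of every other member, and its mean was 3.72 times that of PCDHB13, the next in order. In GENCODE v44, its 4-exon transcript is 5725 nt long and joins the first exon, from 140966476 to 140969331, to the 3 constant exons. PCDHAC2 made up 83.0%, 72.9% and 87.2% of the summed TPM of the alpha cluster in replicates 1, 2 and 3, or 81.0 ± 7.35% (SD, n = 3). PCDHAC1, the other C-type gene of this cluster, was listed at 0 in replicates 1 and 2 and at 0.000716 TPM in replicate 3. Thus the levels of the neighboring C-type genes of the alpha cluster did not overlap.

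The numbered alpha genes, PCDHA1 to PCDHA13, were low throughout. PCDHA8 had 0.257, 0.201 and 0.198 TPM in replicates 1, 2 and 3, a mean of 0.219 ± 0.0332 TPM (SD, n = 3). PCDHA12 had 0.174, 0.555 and 0.0797 TPM in the same libraries, and its mean of 0.270 ± 0.252 TPM (SD, n = 3) was set by replicate 2. PCDHA5 had 0.0722, 0.0502 and 0.0221 TPM, and PCDHA1 had 0.0174, 0.0543 and 0.0587 TPM. The ranges of PCDHA5 and PCDHA1 overlapped and lay below 0.1 TPM throughout.

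Replicate 2, in which PCDHA12 was highest, was also the library in which PCDHAC2 was lowest. The sum of both genes was 3.11, 3.14 and 3.20 TPM in replicates 1, 2 and 3. Its coefficient of variation was 1.35%, against 93.4% for PCDHA12 and 9.48% for PCDHAC2 alone, the latter being 4.11% without replicate 2. The coverage of a row divided by its FPKM, relative to the highest such ratio in the library, differed in the same way. It was 0.474 for PCDHA12 in replicates 1 and 3 and 0.988 in replicate 2, while it was 0.983 for PCDHAC2 in all 3. Every beta value above 0, from genes with 1 row each and no shared exon, had a ratio of 1.00. Of the 24 values above 0 in alpha genes other than PCDHAC2, only that of PCDHA12 in replicate 2 was above 0.9, and the median was 0.479. Of the 50 gamma values above 0, 3 were above 0.9, and the median was 0.542. PCDHGA10 had a ratio of 0.539, 0.967 and 0.539 in replicates 1, 2 and 3, and PCDHGA1 had 0.531, 0.803 and 0.531. PCDHGA8 had 0.971, 0.615 and 0.971 in the same libraries, so such shifts were not limited to PCDHA12. For comparison, the spliced and unspliced transcripts of PCDHAC2 in GENCODE v44 cover 0.974 and 0.512 of their joint exons, and those of PCDHA8 cover 0.984 and 0.477. Whether reads in the constant exons were divided differently between PCDHAC2 and PCDHA12 in replicate 2 was not tested.

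Among the beta genes, PCDHB13 and PCDHB14 stood above the rest. PCDHB13 had 0.826, 0.772 and 0.721 TPM in replicates 1, 2 and 3, a mean of 0.773 ± 0.0525 TPM (SD, n = 3). PCDHB14 had 0.740, 0.782 and 0.796 TPM, a mean of 0.773 ± 0.0291 TPM (SD, n = 3). Their ranges overlapped, and neither could be placed above the other. Together they made up 65.9%, 70.5% and 66.1% of the summed TPM of the beta cluster. PCDHB10 followed with 0.229, 0.177 and 0.288 TPM, all below the lowest value of the leading pair. PCDHB11 had 0.160, 0.0731 and 0.0886 TPM, PCDHB12 had 0.0964, 0.0852 and 0.109 TPM, and PCDHB2 had 0.0740, 0.145 and 0.0700 TPM. Apart from PCDHB2, these genes lie toward the 3′ end of the cluster. The Spearman correlation between order along the chromosome and mean TPM was 0.73 over the 16 beta genes, 0.34 over the 15 alpha genes and -0.06 over the 22 gamma genes. These values describe genes within the same libraries, and alpha and gamma genes also share exons. Of the 16 beta genes, 8 had a value above 0 in every library, so the ranks of the lowest rest on few reads.

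The beta rows allowed the reads behind a value to be estimated, since each beta row had the ratio of a gene with a single transcript. Coverage multiplied by the length of the row gave a whole number of bases, within 0.02, in 16 of 33 values above 0. A pair of 150-base reads carries at most 300 bases. PCDHB9 in replicate 1 had 299 bases, listed as 0.0108 TPM, and PCDHB6 in replicate 2 had 230 bases, listed as 0.0115 TPM. Each of these values holds no more bases than 1 read pair of full length. Trimmed reads, or reads counted in part, could mean more pairs. PCDHB14 had 18392, 19031 and 17338 bases in replicates 1, 2 and 3, or 61.3, 63.4 and 57.8 times 300 bases. A floor of 3 read pairs corresponded to between 0.0317 and 0.0633 TPM, depending on the length of the row and the library. PCDHB2, PCDHB10, PCDHB11, PCDHB12, PCDHB13, PCDHB14 and PCDHB15 exceeded their floor in every library, PCDHB8 and PCDHB9 did so in 1 library each, and the 7 other beta genes did so in none. PCDHB1 was listed at 0 in all 3 libraries, which allows levels up to 0.0555, 0.0567 and 0.0633 TPM. These floors cover counting error only.

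The beta genes are close copies of one another, and a read that fits several of them can be counted in part in each. Of the 150-base windows of PCDHB13, 15.4% also occurred in another beta member, most often PCDHB8, and of those of PCDHB14, 3.75% did. None of the 6 values of these genes was a whole number of bases. All 3 values of PCDHB15, with 3.01% of its windows shared, were whole. PCDHB10 shared 18.1% of its windows, most often with PCDHB9, and 2 of its 3 values were whole. PCDHB1 and PCDHB7 shared none. The part that shared reads have in these levels was not tested.

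No gamma gene reached 1 TPM in any library. PCDHGA1, the first gene of the cluster, had 0.209, 0.286 and 0.394 TPM in replicates 1, 2 and 3, a mean of 0.296 ± 0.0930 TPM (SD, n = 3). It made up 15.4%, 29.1% and 36.2% of the summed TPM of the gamma cluster. PCDHGA10 had 0.138, 0.168 and 0.119 TPM, and PCDHGA9 had 0.119, 0.0939 and 0.108 TPM. PCDHGB2, the leading gene of the B type, had 0.167, 0.0950 and 0.0803 TPM, and PCDHGB7 had 0.162, 0.0671 and 0.0154 TPM. Apart from PCDHGA1, whose lowest value lay above the highest of PCDHGA10, these genes overlapped. The C-type genes of this cluster were near 0. For replicates 1, 2 and 3, PCDHGC3 had 0.0514, 0 and 0.0133 TPM, PCDHGC4 had 0.0193, 0.0186 and 0.0209 TPM, and PCDHGC5 had 0, 0.0253 and 0.0206 TPM. Thus, of the 5 C-type genes, PCDHAC2 was measured at 2.88 TPM and the other 4 had means between 0.000239 and 0.0216 TPM. The 12 gamma A genes summed to 0.835 ± 0.120 TPM and the 7 gamma B genes to 0.252 ± 0.0877 TPM (SD, n = 3).

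The clusters were then compared by their summed TPM. The alpha cluster summed to 3.54, 3.54 and 3.57 TPM in replicates 1, 2 and 3, a mean of 3.55 ± 0.0195 TPM (SD, n = 3). The beta cluster summed to 2.38, 2.20 and 2.30 TPM, a mean of 2.29 ± 0.0865 TPM, and the gamma cluster to 1.36, 0.981 and 1.09 TPM, a mean of 1.14 ± 0.193 TPM (SD, n = 3). The order alpha, beta, gamma held in 3 of 3 libraries, and the sums did not overlap. On the log2(sum + 1) scale, beta to alpha was -0.47 ± 0.04, gamma to alpha -1.09 ± 0.13 and beta to gamma 0.62 ± 0.09 (SD, n = 3). The sum of the 3 C-type genes of the gamma cluster stood at -0.98 ± 0.10 to that of its 19 A and B genes (SD, n = 3). This gap depends on the number of genes and on the added 1, which exceeds the C-type sum of 0.0564 TPM. With 0.1 added instead, the gap was -2.92, and gamma to alpha was -1.57. The ratios therefore give the order of the sums and not their fold differences. Per gene, the C-type averaged 0.0188 ± 0.00450 TPM and the A and B types 0.0572 ± 0.00946 TPM (SD, n = 3). For all 4 ratios, p was 0.25 in an exact permutation of signs (two-sided) and 0.25 after Benjamini-Hochberg adjustment, and 3 libraries cannot give a smaller p.

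The place of the alpha cluster rested on PCDHAC2. Without this gene, the alpha members summed to 0.601, 0.960 and 0.459 TPM in replicates 1, 2 and 3, below the beta sum in each library. With the C-type members left out of all clusters, beta to alpha was 1.08, 0.71 and 1.18 on the same log2 scale, with a mean of 0.99 and one sign in 3 of 3 libraries. Gamma to alpha was then 0.51, -0.02 and 0.48, with a mean of 0.33 and mixed signs, since alpha stayed slightly higher in replicate 2. The exact permutation of signs gave p = 0.25 and p = 0.5 for these means. All 53 members together summed to 7.27, 6.73 and 6.96 TPM, a mean of 6.99 ± 0.275 TPM (SD, n = 3).

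**Figure D2:**
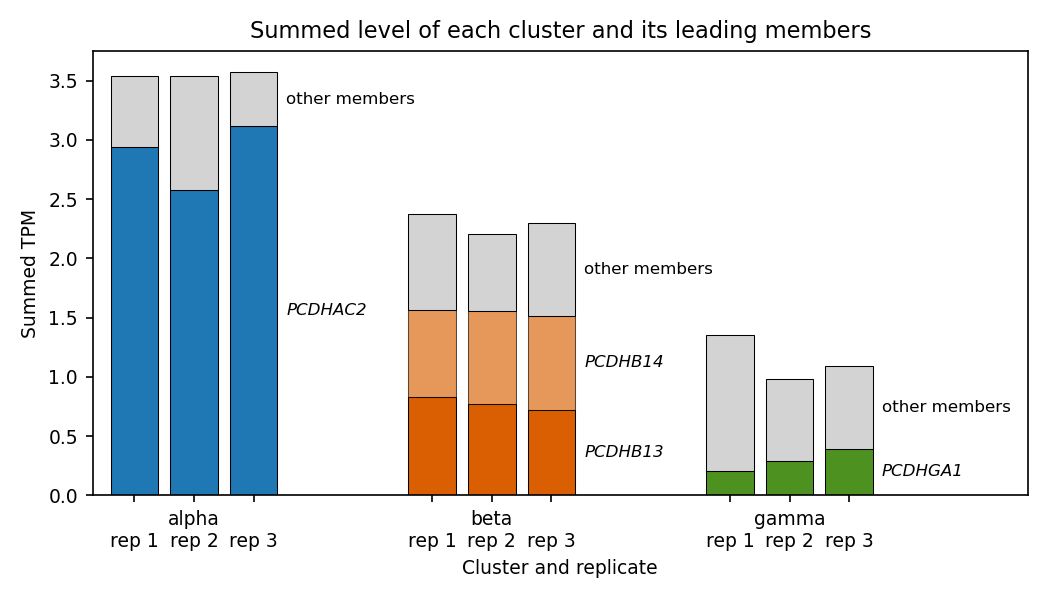
Summed TPM of the alpha, beta and gamma clusters in each replicate (bars from 0), divided into the leading members and all others (grey). PCDHAC2 forms most of each alpha bar, PCDHB13 and PCDHB14 form 65.9% to 70.5% of each beta bar, and PCDHGA1 forms the smaller part of each gamma bar.

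In the order of mean levels, PCDHAC2 was separated from PCDHB13 in every library, PCDHB14 from PCDHGA1, and PCDHA8 from PCDHGA10. All other neighbors among the 15 highest members overlapped. Between libraries, the TPM of the 53 members had a Spearman correlation of 0.67 when replicate 1 was set against replicate 2, 0.74 against replicate 3, and 0.64 when the latter 2 were compared. The points share their libraries and many are at or near 0. The 10 members with a mean between 0.1 and 1 TPM had a median coefficient of variation of 20.8%, against 31.6% over the 4988 rows of the tables in that range. PCDHAC2, the only member above it, had 9.48%, against a median of 9.16% over the 5350 rows between 1 and 10 TPM. The median of the members thus lay below that of the tables in the lower range, where single members ran from 3.76% for PCDHB14 to 93.4% for PCDHA12. The upper range holds 1 member. Rows were matched by TPM and not by length or reads, so whether members vary less than rows of like depth was not tested.

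The promoter windows shown above also differed in base composition. The windows of the C-type genes held 59.0% to 66.0% G and C, above the median of 58.7% over all RefSeq promoters. Those of the numbered alpha genes held 33.7% to 40.3% and those of the beta genes 33.3% to 46.3%. The windows of the gamma A and B genes were more spread, from 32.3% to 65.0%. PCDHAC2 had 63.0% G and C and 15 CpG sites, while PCDHB13 had 46.3% and 10, and PCDHB14 had 35.7% and 8. PCDHAC1, listed near 0, had 66.0% and 27 CpG sites. The RefSeq starts of PCDHAC2, PCDHB13 and PCDHB1 lie within 2 bases of those of the deposited rows. The deposited row of PCDHB14 starts at -1017 from the RefSeq start and that of PCDHGA1 at 171.

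**Figure D3:**
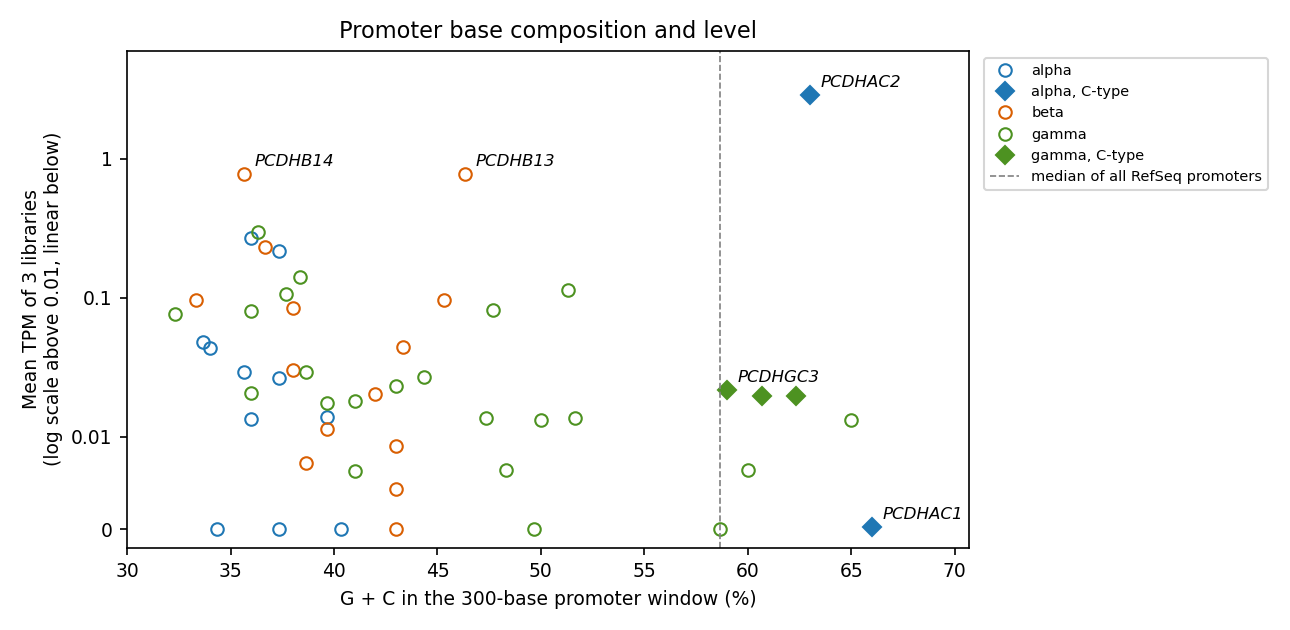
Mean TPM over 3 libraries (logarithmic above 0.01 TPM, linear below) against the percentage of G and C in the 300-base RefSeq promoter window, 1 point per window, with C-type genes as filled diamonds and a dashed line at the median of all promoters. PCDHAC2 and PCDHAC1 have similar windows by this measure, at 63.0% and 66.0%, and lie at opposite ends of the TPM axis, while PCDHB13 and PCDHB14 lie left of the line.

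The genes around the clusters were measured in the same tables. Of 19 other rows within 100 kb, 5 reached 1 TPM in every library, where 30.7% of all rows did so. The same 5 reached 10 TPM, for which the share of all rows is not given here. Of the 10 that lie inside the span of the clusters, 1 reached either limit. HARS, HARS2 and ZMAT2, before the alpha cluster, had means of 106.8, 43.3 and 99.6 TPM. TAF7, which encodes a subunit of the general transcription factor TFIID and lies between the beta and gamma clusters, had 84.6, 76.0 and 78.8 TPM in replicates 1, 2 and 3. DIAPH1, which encodes an actin-nucleating formin, had 130, 121 and 121 TPM. It lies on the minus strand, and the 3′ end of its row is 2035 bp beyond the last gamma row. Thus these 5 genes of over 40 TPM in each library lay between or beside the low protocadherin rows. All remaining rows within 100 kb were below 1 TPM throughout, so low rows near the clusters were not limited to protocadherins. The 4 measured pseudogenes of the clusters were below 0.1 TPM throughout. PCDHACT, a row that covers the alpha constant exons alone, had 0.0249, 0.0303 and 0.0485 TPM.

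**Figure D4:**
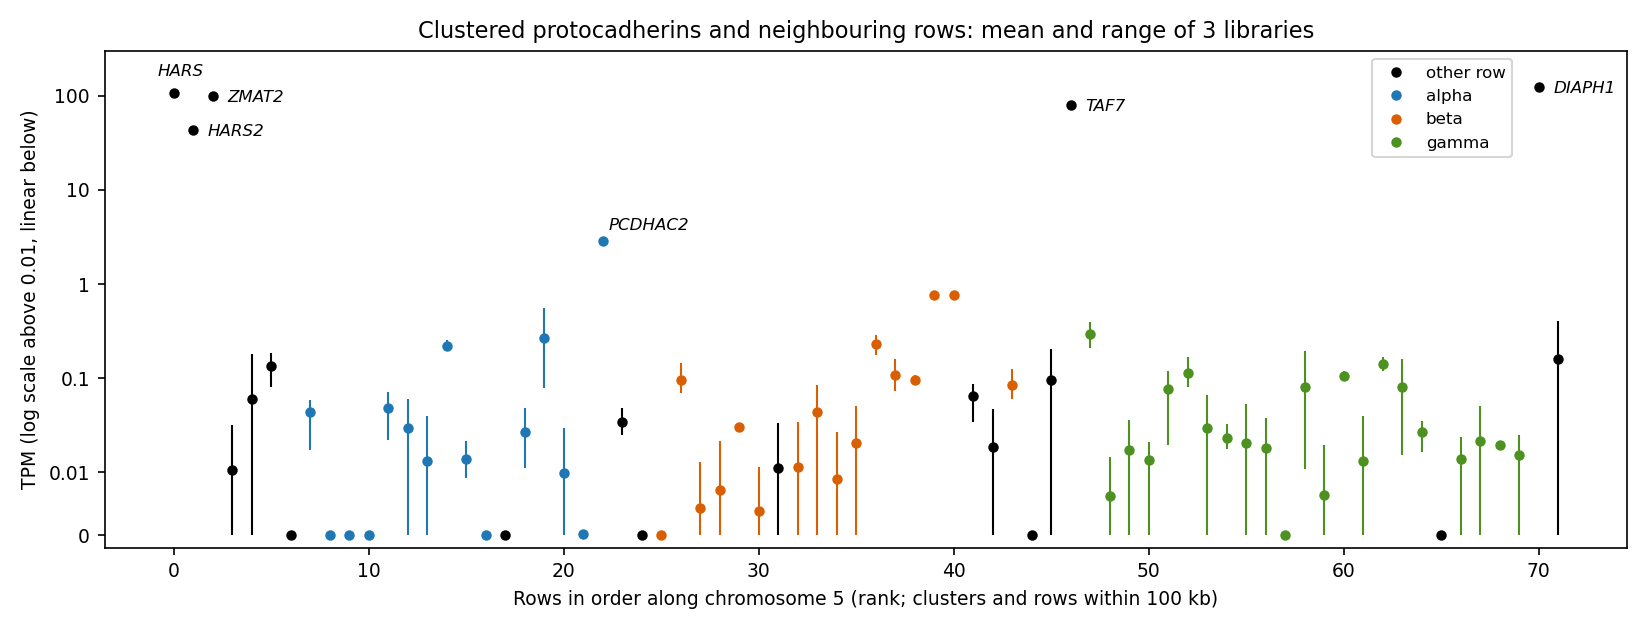
Mean (points) and range (lines) of TPM over 3 libraries for the 53 members and the 19 other rows within 100 kb, by rank along chromosome 5; the vertical axis is logarithmic above 0.01 TPM and linear below. HARS, HARS2, ZMAT2, TAF7 and DIAPH1 lie above 40 TPM, while PCDHAC2 at 2.88 TPM is the highest protocadherin.

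Among 12 protocadherins outside the clusters, PCDH7 and PCDH1 reached 1 TPM in every library. Another 8 were listed at 0 in all 3, as were 20.0% of the protein-coding rows of the main chromosomes. PCDH7 had 8.87, 8.71 and 9.18 TPM in replicates 1, 2 and 3, above the sum of all clustered members. PCDH1 had 1.46, 1.68 and 1.17 TPM, below PCDHAC2 in each library. Genes known to act on the clusters were all measured. Each of the 21 listed regulators reached 1 TPM in every library, and 18 reached 10 TPM. Of the protein-coding rows of the main chromosomes, 59.5% reached 1 TPM in every library, and their share at 10 TPM is not given here. CTCF had 36.4, 36.4 and 33.9 TPM, and the cohesin subunits RAD21 and SMC3, which hold chromatin loops together with it, had means of 123 and 99.6 TPM. The DNA methyltransferases DNMT1, DNMT3A and DNMT3B had means of 79.4, 8.40 and 7.43 TPM, and SMCHD1 and SETDB1, which act in silencing, had 13.2 and 24.8 TPM. Of 18 genes for proteins that bind, cleave or signal from protocadherins, 17 reached 1 TPM in every library. They include the focal adhesion kinase PTK2, with a mean of 22.3 TPM, and the WAVE regulatory complex subunit CYFIP1, with 50.3 TPM. The receptor kinase RET was listed at 0 in all 3.

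Since clustered protocadherins are best known from neurons, 12 neuronal markers were set beside them. TUBB3, SNAP25 and SYP reached 1 TPM in every library, and 9 markers were below 1 TPM in all 3. Of the protein-coding rows of the main chromosomes, 59.5% reached 1 TPM in every library. STMN2, GAP43, ELAVL3 and ELAVL4 were listed at 0. TUBB3, a tubulin that tumor cell lines also express, had a mean of 149 TPM. The list summed to 151, 156 and 157 TPM in replicates 1, 2 and 3. Of 8 mesenchymal markers, 5 reached 1 TPM in every library, a share near the 59.5% of protein-coding rows, so this count does not set the list apart. The list summed to 804, 724 and 711 TPM. VIM, at 694 ± 48.1 TPM (SD, n = 3), made up most of these sums. CDH2, ZEB1, COL1A1 and TWIST1 had means of 27.1, 11.6, 6.93 and 5.72 TPM. FN1 had a mean of 0.908 TPM and COL1A2 of 0.0210 TPM, and SPARC was listed at 0. The part of the cells' type in the protocadherin levels was not tested.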

How the data were processed

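RNA-seq was analysed in 3 libraries labelled WT HepG2. Reads were paired, of 150 bp. The submitters' processing notes name FastQC 0.11.8, Trim Galore 0.6.2, STAR 2.6.1a and GRCh38, and StringTie without a version. The annotation and strand setting are not given in the sources used here. The deposited coverage column holds a gene's average read depth and is not adjusted for library size. The deposited FPKM and TPM columns account for both length and library size, and TPM had an equal sum in each library. The tables hold no counts, and depth was estimated for single-transcript rows only. The highest coverage per FPKM, which rises with depth, was 13.3, 12.8 and 11.5 in replicates 1, 2 and 3.

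Rows were joined on gene and coordinates. Coverage times row length gave aligned bases, and the floor of 3 read pairs was converted to TPM with each library's highest ratio. Summed TPM was compared on log2(sum + 1) by an exact permutation of signs, two-sided. No filter was applied to the sums. Values are printed in every library for the 5 highest members of each cluster, the C-type members and PCDHB1. The members and gene lists were chosen with earlier results of these data known. Motifs were searched on both strands of RefSeq promoter windows, and shared 150-base windows in hg38. Exons were taken from GENCODE v44. The calculations were tested on simulated data with scipy 1.17.1, numpy 2.4.6, pandas 2.3.3 and matplotlib 3.10.9 under Python 3.11.15. The alternatives were other scalings, pseudocounts, limits and members, coverage in place of TPM and leaving out each replicate.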

Additional observations from a re-analysis of the deposited data

How the results depend on the processing

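Depth limits every level at or under the floors of up to 0.0633 TPM, and the constant exons shared within the alpha and gamma clusters limit the values of single members. Scaling without mitochondrially encoded genes raised the sums to 4.44 TPM for alpha, 2.87 TPM for beta and 1.43 TPM for gamma, since it removes a share of TPM that was nearly the same in each library. Without the C-type members, the log2 ratio of beta to alpha reversed from -0.47 to 0.99 and that of gamma to alpha from -1.09 to 0.33, since this removes PCDHAC2. The latter was -0.02 in replicate 2 and above 0 in the other libraries (exact permutation p = 0.5). Under coverage in place of TPM or a pseudocount of 0.1, the ratios kept their direction, but their size depends on the pseudocount. Coverage gave -1.98 for gamma to alpha, 1.51 for beta to gamma and -2.07 within gamma. The pseudocount gave -0.61 for beta to alpha, -1.57 for gamma to alpha, 0.96 for beta to gamma and -2.92 within gamma. With only members of at least 1 TPM, both ratios to alpha were -1.95, which compares PCDHAC2 with empty clusters and says nothing of their order. This setting gave no ratio between beta and gamma, which have no such member, and neither it nor the one without C-type members gave a ratio within gamma. The number of members at 1 TPM in every library was 1, against 7 at a minimum of 0.1 TPM and 0 at 10 TPM. The median coefficient of variation moved from 9.48% to 17.4% with members from 0.1 TPM, which adds 10 lower genes.

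When 1 library was left out, the sums ranged from 3.54 to 3.56 TPM for alpha, from 2.25 to 2.34 TPM for beta and from 1.04 to 1.22 TPM for gamma. The log2 ratios ranged from -0.49 to -0.45 for beta to alpha, from -1.16 to -1.04 for gamma to alpha, from 0.59 to 0.68 for beta to gamma, and from -1.02 to -0.92 within gamma. The number of members at 1 TPM was 1 in each set. The share of the leading member ranged from 78.0% to 85.1% for alpha, from 33.1% to 34.9% for beta and from 22.3% to 32.6% for gamma. The coefficient of variation of PCDHAC2 ranged from 4.11% to 13.3%, with the lowest value without replicate 2. No comparison of conditions, paired or not, was possible because the series has 1 condition. The ratios between clusters were formed within each library and so were paired by library.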
